A study of Canis lupus familiaris with 42 samples.

Results

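The expression of 10 endothelial and angiopoietin genes was followed in 21 canine sarcomas sampled before and again after the first hyperthermia treatment. The genes were listed by name as PECAM1, CDH5, KDR, FLT1, TEK, TIE1, VWF, CD34, ANGPT1 and ANGPT2. All 10 were measured, among 15115 named genes on the array, by 21 probe sets annotated with 1 of these symbols alone. For each gene the probe set with the highest mean over all 42 arrays stood for the gene, and the others served as a check. The tumours were spontaneous sarcomas of dogs (Canis lupus familiaris), of no named subtype, and the heating accompanied radiotherapy. The group before treatment held 21 tumours with no treatment, and the group after treatment held the same 21 tumours. The series text speaks of 22 tumours, of which 21 are analysed here. Sex, breed, age, radiation dose and the time between the samples are not given in the sources used here, and no second sample of an unheated tumour is in the comparison.

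Blood vessels are lined by endothelial cells. VEGFA, made by tumour and stromal cells under hypoxia and stress, signals through the receptor kinase KDR, which drives endothelial growth and permeability, while FLT1 binds the same ligand tightly with weaker kinase output and also exists as a soluble decoy. The angiopoietins act on the receptor kinase TEK, also called TIE2. ANGPT1, from pericytes and other mesenchymal cells, keeps vessels quiet and tight. ANGPT2, stored in endothelial granules together with VWF, often opposes ANGPT1 and loosens vessels, and TIE1 is a receptor without a known classical ligand of its own that modulates TEK. PECAM1 and CDH5 sit at the contacts between endothelial cells, and CD34 is a surface sialomucin of endothelium, of haematopoietic progenitors and of some resting fibroblasts. In pieces of whole tumour, fewer cells of a type and less RNA per cell cannot be told apart.

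Expression was read as log2 levels, so a difference of 1 is a doubling, and each difference is given as after minus before. Levels of different probe sets share no common scale, so each gene is compared only with itself. Over the 36 poly-A control probe sets, which report spike-in RNA added during labelling, 9 tumours had medians of 6.23 to 8.04 on both arrays and 12 had medians of 3.20 to 4.36. These are called the high and the low spike-in tumours here. No label names them a batch, and the sources do not say what set them apart. The contrast between 3' and 5' probe sets of the actin and GAPDH controls, a sign of RNA integrity, was higher after treatment in 8 of 9 high spike-in tumours (mean difference 0.38, SD 0.38) and in 5 of 12 low spike-in tumours (mean difference -0.05, SD 0.40). Tumour 13 stood apart, since its contrast was the highest of the arrays before treatment, at 1.69, and lower by 1.03 after it: its value of 0.66 then lay within the range of the others.

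None of the 10 genes passed the test across all tumours. The paired limma fit, adjusted over 42924 probe sets, called 0 of 10 members at an adjusted p under 0.05, against 5.96% of all probe sets (2.97% higher and 2.99% lower) and 7.15% of all named genes. At an unadjusted p under 0.05 there were 3 members, FLT1, TEK and CD34, where 19.4% of all probe sets passed. The Wilcoxon signed-rank test called 0 members after adjustment, against 1.41% of all probe sets, and 2 without it, against 19%. The median difference over the members was 0.06, against 0.003 over all probe sets, and 7 of 10 mean differences were above 0. Individual tumours spread far more widely than the means, as the plots of levels and of differences show.

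**Figure D1:**
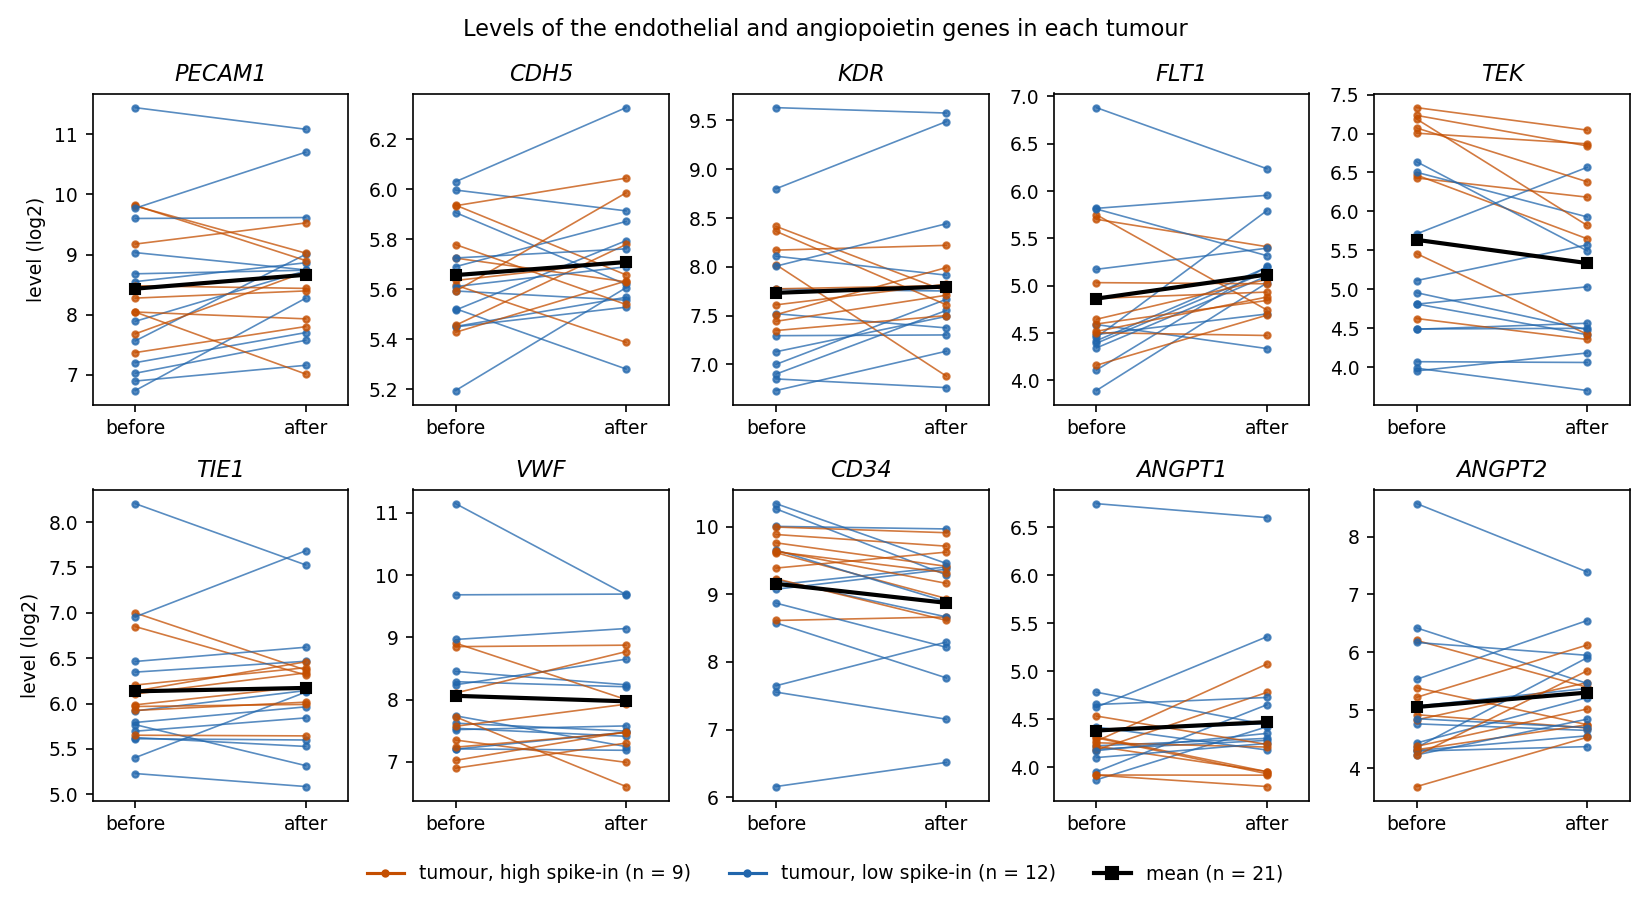
Level (log2) of each of the 10 genes before and after the first hyperthermia treatment, with 1 line for each of 21 tumours, coloured by spike-in group. Before and after values overlap for every gene, and PECAM1, VWF, CD34 and ANGPT2 span more than 4 log2 units before treatment while CDH5 spans 0.83.

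PECAM1, an adhesion molecule of endothelial junctions that is also found on platelets and leukocytes, lay at 6.74 at the lowest, 8.28 at the median and 11.44 at the highest before treatment, and at 7.02, 8.73 and 11.08 after it. Tumour 13 was the highest at both times. The ranges overlapped almost fully, yet 14 of 21 tumours were higher after treatment. The mean difference was 0.23 ± 0.15 (SE, n = 21), a 1.17-fold difference with a 95% interval of 0.96 to 1.43, and the limma adjusted p was 0.399. The other 3 probe sets of PECAM1 moved with it over tumours (r of the differences 0.79 to 0.85, n = 21), with limma adjusted p of 0.614 to 0.703.

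CDH5, which encodes VE-cadherin, the adhesion protein of endothelial contacts, had the narrowest spread of the members, read from the probe set that stood for it. Its level lay between 5.196 and 6.03, with a median of 5.62, before treatment and between 5.28 and 6.33, with a median of 5.66, after it. The mean difference of 0.05 ± 0.05 (SE, n = 21) had an interval of -0.05 to 0.16, and the limma adjusted p was 0.649. The 4 probe sets of CDH5 did not move together: their differences correlated with r between -0.27 and 0.19 over 21 tumours. The 4 probe sets of PECAM1 did (r 0.71 to 0.92).

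KDR, the main signalling receptor for VEGFA, ranged from 6.73 through a median of 7.61 to 9.63 before treatment and from 6.76 through 7.71 to 9.58 after it. Tumour 13 was the highest at both times, and 13 of 21 tumours were higher after treatment. Its mean difference was 0.06 ± 0.10 (SE, n = 21), with an interval of -0.14 to 0.26 and a limma adjusted p of 0.796. Tumour 10, where KDR was lower by 1.14 after treatment, is the only tumour with a KDR difference beyond 1 in either direction.

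FLT1, the other VEGFA receptor, had a lowest, median and highest level of 3.89, 4.59 and 6.88 before treatment and of 4.34, 5.07 and 6.24 after it. The median and the lowest value were higher after treatment and the highest was lower, and the SD over tumours was 0.74 before and 0.47 after. FLT1 was higher in 14 of 21 tumours, with a mean difference of 0.25 ± 0.13 (SE, n = 21), an interval of 0.003 to 0.50 and a limma adjusted p of 0.25 (unadjusted p = 0.0472). In 3 tumours FLT1 was higher by more than 1, and in tumour 8 it was lower by just over 1. The mean level of this probe set lay at the 44.9th percentile of all probe sets, so part of its range may be near background. The other probe sets of FLT1 had mean differences of 0.12 (interval -0.08 to 0.33) and 0.16 (interval -0.11 to 0.43). Each was higher in 12 of 21 tumours, with limma unadjusted p of 0.226 and 0.223 and adjusted p of 0.561 and 0.558. The unadjusted pass of FLT1 therefore belongs to the probe set that stood for it alone.

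TEK, the angiopoietin receptor, had a lowest, median and highest level of 3.95, 5.46 and 7.33 before treatment and of 3.70, 5.49 and 7.04 after it. It was lower after treatment in 15 of 21 tumours although the medians nearly coincided. The mean difference was -0.30 ± 0.12 (SE, n = 21), an interval of -0.52 to -0.07, with a limma adjusted p of 0.110 (unadjusted p = 0.0112). The 3 tumours with a TEK level lower by more than 1 were tumour 20 (-1.36), tumour 13 (-1.14) and tumour 10 (-1.03), and tumour 16 was higher by 0.85. Leaving out tumour 16, the one with the largest rise, gave -0.36 with a limma adjusted p of 0.0414. Of the 21 fits with a single tumour left out, this was the only 1 in which TEK passed. Only 1 probe set is annotated with TEK alone, so no other reading of the gene is given.

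TIE1, the partner receptor of TEK, ranged from 5.23 through a median of 5.97 to 8.20 before treatment and from 5.09 through 6.14 to 7.68 after it. Its mean difference was 0.04 ± 0.08 (SE, n = 21), with 13 of 21 tumours higher and a limma adjusted p of 0.861. Among the probe sets that stood for the members, only that of TIE1 followed the 3' to 5' contrast at an unadjusted p under 0.05. Its slope was 0.44 (limma unadjusted p = 0.0114, adjusted p = 0.124). Of all probe sets 19.1% passed unadjusted. After adjustment 0 of 10 members passed, against 4.19% of all probe sets. With the contrast as a covariate the mean difference of TIE1 was -0.02. The second TIE1 probe set had a mean difference of 0.02. Its slope on the contrast was 0.16 (limma unadjusted p = 0.472, adjusted p = 0.742), so the unadjusted pass belongs to the first probe set alone. For CDH5 the second probe set had a slope of -0.37 (limma unadjusted p = 0.00893, adjusted p = 0.110). The first CDH5 probe set, which stood for the gene, had 0.003 (limma unadjusted p = 0.980).

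VWF, the clotting protein of endothelial granules and platelets, had a lowest, median and highest level of 6.90, 7.72 and 11.15 before treatment and of 6.60, 7.58 and 9.70 after it. The highest level before treatment belonged to tumour 13, where VWF was lower by 1.46 afterwards, the largest difference of the gene. The mean difference was -0.09 ± 0.12 (SE, n = 21), with an interval of -0.31 to 0.14, 11 of 21 tumours higher and a limma adjusted p of 0.741.

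CD34 had a lowest, median and highest level of 6.16, 9.39 and 10.34 before treatment and of 6.51, 9.16 and 9.97 after it. Tumour 4 was the lowest at both times, and 15 of 21 tumours were lower after treatment. The mean difference of -0.28 ± 0.10 (SE, n = 21), a 0.823-fold level with an interval of 0.718 to 0.942, had a limma adjusted p of 0.0796 (unadjusted p = 0.00655). The second CD34 probe set, which ran parallel to the first over tumours (r 0.94 before treatment and 0.83 for the differences), fell by 0.35 in the mean, in 16 of 21 tumours, with a limma adjusted p of 0.0474. It was the 1 probe set of 21 that passed. Leaving out tumour 15, where CD34 had its largest rise of 0.65, gave the first probe set a mean of -0.33 with a limma adjusted p of 0.0244. It passed in only this 1 of the 21 fits with a single tumour left out.

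Since CD34 is also made by resting fibroblasts, the 7 listed markers of these cells are given beside it. All 7 were measured, and their mean level differed by -0.27 in the mean (SD 0.53, n = 21), higher in 7 of 21 tumours. The difference of CD34 and that of these markers correlated weakly over tumours (r 0.22, rho 0.06, permutation adjusted p 0.42 and 0.78), and so did CD34 with the other endothelial markers (r 0.21, permutation adjusted p 0.42). The part of either cell type in the CD34 values was not tested further.

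ANGPT1, the ligand that activates TEK, ranged from 3.87 through a median of 4.26 to 6.74 before treatment and from 3.80 through 4.30 to 6.60 after it. The range came from tumour 17, highest at both times, and the probe set's mean level lay at the 34.5th percentile. The mean difference was 0.09 ± 0.08 (SE, n = 21), with 11 of 21 tumours higher and a limma adjusted p of 0.615.

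ANGPT2, the context-dependent TEK ligand, had a lowest, median and highest level of 3.68, 4.83 and 8.57 before treatment and of 4.37, 5.22 and 7.39 after it. The mean difference of 0.25 ± 0.17 (SE, n = 21) had an interval of -0.06 to 0.56, 13 of 21 tumours higher and a limma adjusted p of 0.401. Differences ran in both directions, reaching -1.18 (tumour 17) and 1.55 (tumour 1), and the SD of its difference, 0.76, was larger than that of 97.3% of all probe sets. The second ANGPT2 probe set gave a mean difference of -0.003, and its differences correlated with those of the first at r 0.42 (n = 21), so the sign of the mean rests on the probe set. The ANGPT2 difference exceeded that of ANGPT1 in 13 of 21 tumours (mean 0.16, SD 0.84, n = 21).

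**Figure D2:**
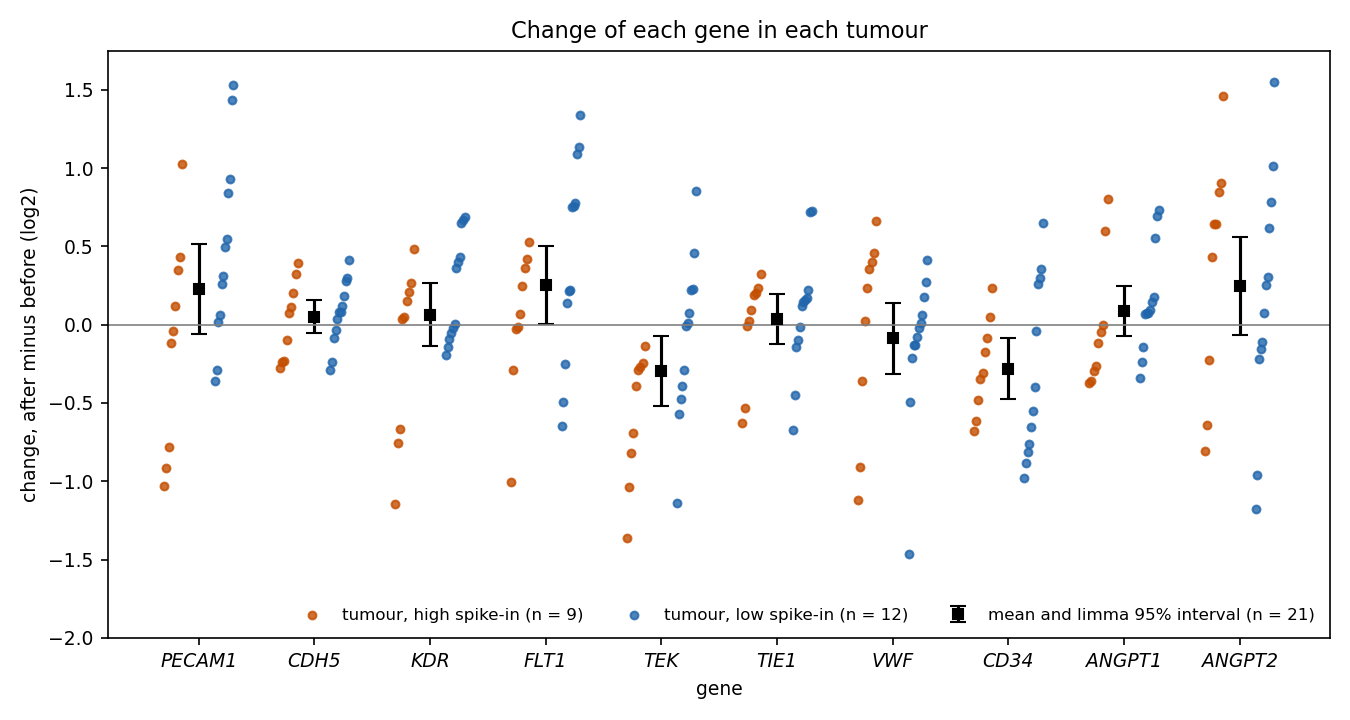
Difference in level (log2, after minus before) of each gene by tumour, with the mean and its 95% interval from limma, coloured by spike-in group. The means lie between -0.30 and 0.25 while single tumours reach from -1.46 to 1.55, and all 9 high spike-in tumours lie below 0 for TEK.

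The spike-in groups gave different pictures for TEK and PECAM1. In the 9 high spike-in tumours TEK fell by 0.58 in the mean (SD 0.42), was lower in all 9, and was the 1 member called by limma (adjusted p 0.0276), where 3.01% of all probe sets were. TEK and CD34 had an unadjusted p under 0.05 there, as did 19.7% of probe sets. In the 12 low spike-in tumours its mean difference was -0.09 (SD 0.53), with 6 of 12 higher. The TEK level before treatment also differed, with means of 6.53 (SD 0.93, n = 9) and 4.96 (SD 0.91, n = 12). PECAM1 had a mean difference of -0.11 (SD 0.69, n = 9) in the high and 0.48 (SD 0.61, n = 12) in the low spike-in tumours, higher in 10 of the latter. The limma adjusted p in the low spike-in tumours was 0.261 (unadjusted p = 0.00735). KDR and FLT1 followed the same order, with means of -0.15 and 0.23 for KDR and of 0.03 and 0.42 for FLT1. The low spike-in tumours had 0 called members and 0% of all probe sets called by limma, and 3 members at an unadjusted p under 0.05, where 11.6% of probe sets passed. CD34 had nearly the same mean in both, -0.27 and -0.29.

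The differences between the groups were tested as an interaction. None of the 10 members passed the adjusted limma test, where 0.00233% of all probe sets did. At an unadjusted p under 0.05 there were 2 members, where 7.1% of all probe sets passed. For PECAM1 the high minus low difference was -0.59 (p = 0.0341, limma adjusted p = 0.670), and for TEK it was -0.50 (p = 0.0202, limma adjusted p = 0.653). The 3' to 5' contrast was higher after treatment in 8 of the 9 high spike-in tumours. The slope of the difference on the contrast was 0.28 for PECAM1 (limma unadjusted p = 0.395) and 0.09 for TEK (p = 0.727). For the other PECAM1 probe sets it was 0.17, -0.54 and -0.33 (limma unadjusted p = 0.551, 0.0863 and 0.268). The sign of the PECAM1 slope thus rests on the probe set. Beyond these slopes, the covariate fit and the fit without tumours of changed contrast, its part in these values was not tested.

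Tumours differed in how many of the genes moved and in which direction. The mean difference of the 8 endothelial genes, without ANGPT1 and ANGPT2, ran from -0.64 in tumour 10 to 0.58 in tumour 2, with a mean of -0.004 (SD 0.32, n = 21) and 12 of 21 tumours above 0. In tumour 10, PECAM1 (-1.03), KDR (-1.14), TEK (-1.03) and VWF (-1.12) were lower together. In tumour 2 PECAM1 was higher by 1.44, FLT1 by 1.34 and ANGPT2 by 1.01, and 9 of the 10 genes were higher. Tumour 13, with the highest levels of PECAM1, KDR, TIE1 and VWF before treatment, was lower for 9 of 10 genes afterwards, beside its lower 3' to 5' contrast. Tumour 12 was also lower for 9 of 10, and tumour 16 higher for 9 of 10. The low spike-in tumours had a mean of 0.09 (8 of 12 above 0) and the high spike-in tumours of -0.14 (4 of 9 above 0).

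**Figure D3:**
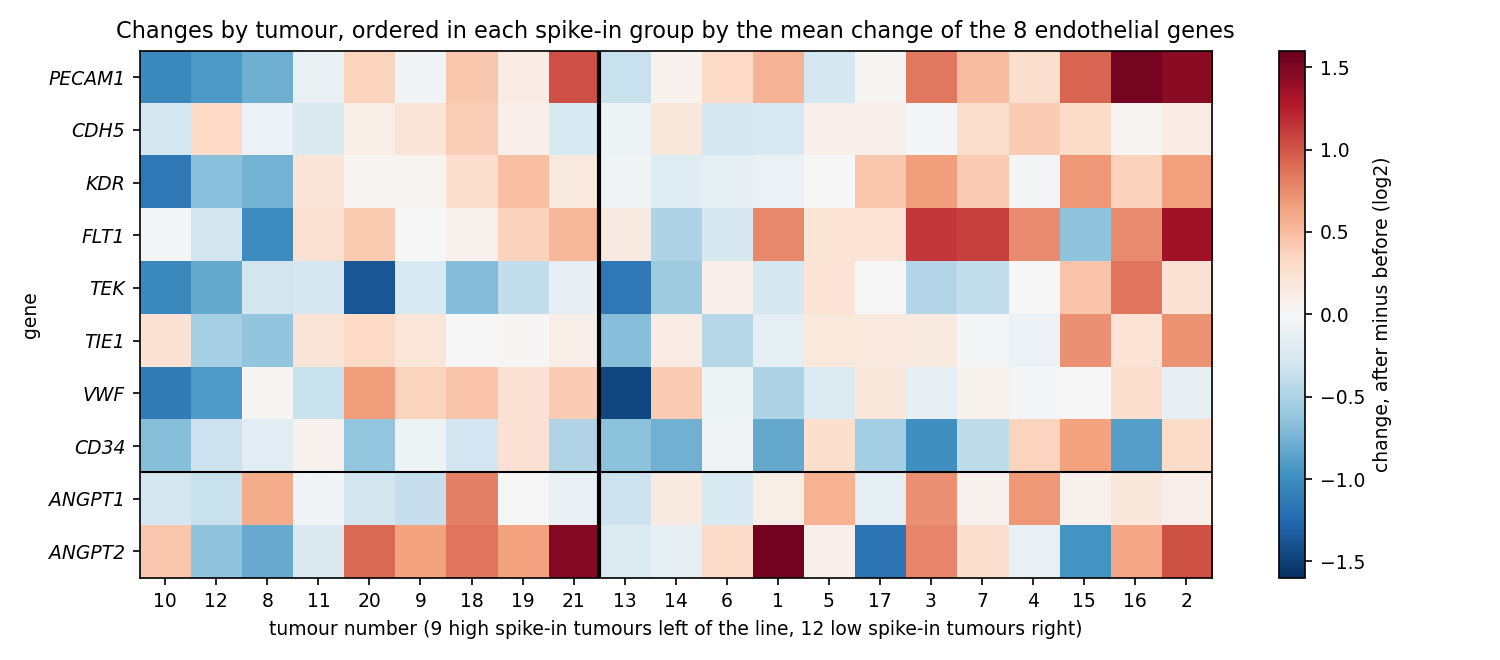
Difference in level (log2, after minus before) of the 10 genes in each of the 21 tumours. Within each spike-in group the tumours are ordered by the mean difference of the 8 endothelial genes. The 9 high spike-in tumours lie left of the line and the 12 low spike-in tumours right of it. Tumour 10 (mean -0.64, high spike-in) and tumour 2 (mean 0.58, low spike-in) are the ends.

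Before treatment the levels of several vessel genes varied together across tumours. Of the 45 pairs of members, 17 passed the permutation test of r over 21 tumours after adjustment over the 45, all positive, and 16 of these passed with Spearman's rho too. All 10 pairs among PECAM1, KDR, FLT1, TIE1 and VWF passed, with r of 0.73 to 0.93, rho of 0.60 to 0.90 and adjusted permutation p of 0.00015 to 0.00211. TIE1 and KDR were the closest pair at r 0.93. The smallest p that 100000 permutations can give is 1e-05. In the high and low spike-in tumours the r of these 10 pairs ran from 0.79 to 0.96 and from 0.72 to 0.96. Without the 2 tumours farthest from the median, 9 of 10 pairs still passed, and KDR with VWF did not (r 0.53). Levels that share arrays also share RNA quality and normalisation, and tumour 13 was 1 of the 2 tumours left out in each of these 10 pairs.

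TEK and CD34 each passed in 0 of 9 pairs by r over all 21 tumours, with r between -0.07 and 0.46 against those 5 genes. TEK with TIE1 did pass by rho (0.55, adjusted permutation p 0.029). TEK, whose level differed between the spike-in groups, had r of 0.50 to 0.73 with the 5 genes in the 12 low spike-in tumours, where TIE1 passed (r 0.73, adjusted permutation p 0.029), and of -0.04 to 0.24 in the 9 high spike-in tumours. CD34 had r of -0.16 to 0.10 in the low and of 0.26 to 0.50 in the high spike-in tumours. ANGPT2, which endothelial cells make, passed with all 5 (r 0.54 to 0.67, rho 0.60 to 0.75, n = 21), and 2 of these 5 passed without the 2 farthest tumours. Those were the farthest in the other gene, so tumour 17, with the highest ANGPT2 level, stayed in. In the low spike-in tumours r ran from 0.53 to 0.63 and no pair passed (adjusted permutation p 0.0736 to 0.148). In the high spike-in tumours r ran from 0.72 to 0.92, and PECAM1, TIE1 and VWF passed. ANGPT1 and ANGPT2 correlated at r 0.82, and passed by rho as well (0.57, adjusted permutation p 0.0211). Without tumours 17 and 13 the r was 0.39 (adjusted permutation p 0.172), so the size of r rests on those tumours. Over all tumours CDH5 passed with TIE1 alone (r 0.51, permutation adjusted p 0.0473) and with no gene by rho. In the 12 low spike-in tumours it passed with TIE1 (r 0.70), VWF (r 0.71) and FLT1 (r 0.67), with adjusted permutation p of 0.029, 0.029 and 0.0482. In the high spike-in tumours these r were -0.16, -0.05 and -0.47. All these relations of CDH5 are those of its first probe set. The third, with a wider range, correlated with the first at r 0.50 before treatment, and its relations with other genes were not tested.

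**Figure D4:**
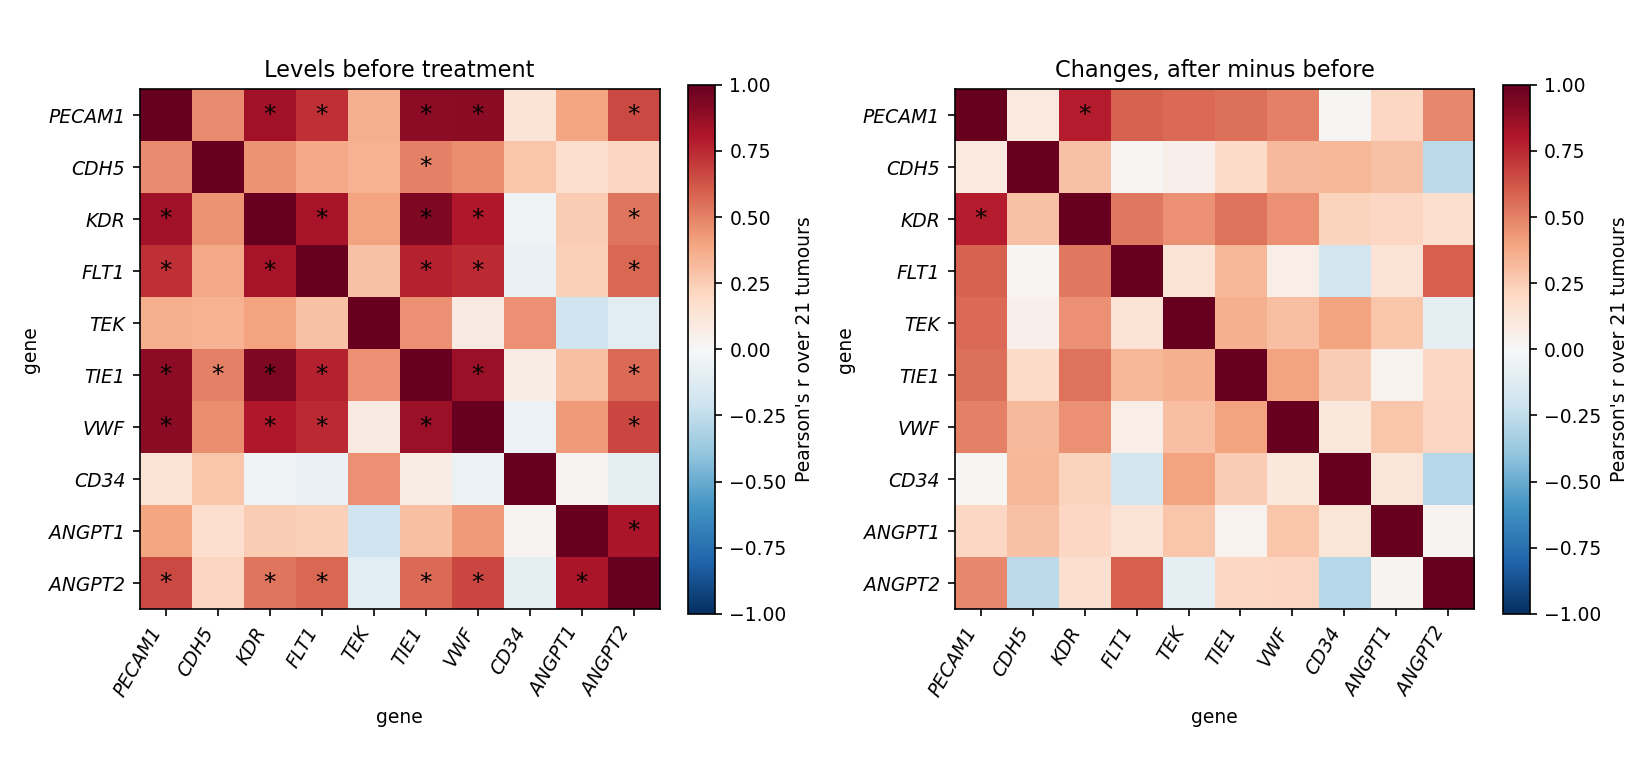
Pearson's r between members over 21 tumours, for levels before treatment and for the differences after minus before. Levels of PECAM1, KDR, FLT1, TIE1 and VWF form a block with r of 0.73 to 0.93, whereas 1 pair of differences, PECAM1 with KDR at r 0.78, passed the adjusted permutation test.

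A tumour's level after treatment followed its level before treatment for most members. The r ran from 0.50 for CDH5 and 0.58 for FLT1 to 0.89 for TEK and for CD34 over 21 tumours, against a median of 0.62 over 15115 named genes (quartiles 0.42 and 0.77). PECAM1 (0.81), VWF (0.85) and TIE1 (0.84) were also above that median, as were ANGPT1 (0.81), KDR (0.77) and ANGPT2 (0.72). All 10 passed the permutation test of r, adjusted over the 10 (the highest adjusted p was 0.0189), and 7 passed with rho. The test was not run on the other named genes, so this count does not set the members apart from them. The lower quartile of r over all named genes was 0.42. CDH5, FLT1 and ANGPT1 did not pass with rho. The same 3 genes did not pass without the 2 farthest tumours, where r was 0.37 for CDH5, 0.19 for FLT1 and 0.40 for ANGPT1. In the high spike-in tumours TEK alone passed, and KDR had r -0.03. In the low spike-in tumours all 10 passed, and KDR had r 0.92.

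Of the 45 pairs of differences, 1 passed the adjusted permutation test of r and 0 that of rho. A pair that did not pass is not shown to be unrelated: 41 of the 45 had r above 0 (median 0.25). Nearest to passing were FLT1 with ANGPT2 (r 0.60) and PECAM1 with FLT1 (r 0.59), each with an adjusted permutation p of 0.0723. PECAM1 and KDR moved together (r 0.78, permutation p 4e-05, adjusted p 0.0018; rho 0.65, adjusted rho p 0.0823), with the same sign in 14 of 21 tumours and r of 0.83 and 0.65 in the high and low spike-in tumours. Without tumours 10 and 16 the r was 0.76. In a family of 8 relations chosen after values were seen, the PECAM1 difference also followed the mean of the other endothelial markers (r 0.77, adjusted permutation p 0.00072). Its relation with the mean of the leukocyte markers did not pass (r -0.12, adjusted permutation p 0.617). That mean joins markers of several leukocyte types that moved in both directions. No relation with platelet markers was run, and the source of the PECAM1 difference was not tested. In the same family the ANGPT2 difference followed that of VEGFA (r 0.63, rho 0.60, adjusted permutation p 0.00868), with r 0.75 without tumours 17 and 15 and 0.77 and 0.59 in the high and low spike-in tumours. FLT1 followed VEGFA as well (r 0.58, adjusted permutation p 0.018). All relations of ANGPT2 given here, with its likeness to other genes, are those of its first probe set. The differences of the second correlated with those of the first at r 0.42, and its relations with other genes were not tested.

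The genes whose level before treatment was most like the mean standardised level of the 8 endothelial genes, of 9171 candidates, were ARID5A and ECSCR (r 0.88, n = 21), then RASL11A, DYSF, MECOM, GOLGA3, DYRK1B, ACTRT2, OR1M1B and GALNT18 (r 0.83 to 0.87). ECSCR encodes an endothelial surface protein. The other endothelial markers on the list had a median r of 0.58, with 12 of 18 candidates above 0.5, and the pericyte and smooth muscle markers 0.52. The leukocyte and lymphatic markers, at 0.47 each, were close to these, the tip cell, Notch and activation genes had 0.41 and the platelet markers 0.35. The adhesion and coagulation genes had 0.18, the VEGF ligands and co-receptors 0.15 and the angiopoietin and TIE partners 0.03. The resting fibroblast markers lay at -0.01 and all candidates at -0.08. The differences most like that of ANGPT2 were those of BMP2 (r 0.84), PHC2, PHF10, FBXO30 and WEE1 (r 0.73 to 0.75), and those most like that of ANGPT1 were FAM13B, CTU1, APOL6, CASZ1 and SLC39A9 (r 0.66 to 0.69). These are descriptions over 21 tumours that share arrays.

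Around these genes, 10 lists of vessel and neighbouring-cell genes were followed, of which 105 of 121 genes were measured. In all, 3 rose and 3 fell by limma, against 4.02% and 3.13% of 15115 named genes. An unadjusted p under 0.05 was reached by 25 of the 105 (23.8%, against 19.4% of all probe sets). The Wilcoxon signed-rank test called 2 after adjustment (1.90%, against 1.41%), in the coagulation and the fibroblast list. PROCR, the endothelial protein C receptor, rose by 0.65 ± 0.13 (SE, n = 21; limma adjusted p 0.0031), was higher in 18 of 21 tumours and went from a median of 6.61 to 7.32. It was the 1 of 12 adhesion and coagulation genes that passed, and THBD, thrombomodulin, had a mean difference of -0.21. ACVRL1, the endothelial receptor kinase ALK1, rose by 0.28 ± 0.06 (SE, n = 21; limma adjusted p 0.0085) in 16 of 21 tumours and was the 1 of 25 other endothelial markers that passed. The adrenomedullin receptor CALCRL had a mean difference of -0.55 (limma adjusted p 0.0646). The list's mean level ran from 5.86 to 7.30 before and from 5.81 to 7.07 after treatment, a mean difference of -0.03.

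NRP1, the co-receptor of VEGFA, fell by 0.55 ± 0.17 (SE, n = 21; limma adjusted p 0.0303) and was higher in 4 of 21 tumours. It was the 1 of 8 VEGF ligands and co-receptors that passed. VEGFA had a mean difference of 0.42 (14 of 21 higher, limma adjusted p 0.123), VEGFC of 0.40 (limma adjusted p 0.180), VEGFB of -0.09 (limma adjusted p 0.469) and PGF, the placental growth factor that binds FLT1, of -0.07 (limma adjusted p 0.727). None of 10 angiopoietin and TIE partners passed (3 at an unadjusted p under 0.05), ANGPTL4 being nearest with 0.33 (limma adjusted p 0.0603), ahead of ANGPTL2 with 0.18. None of 13 tip cell, Notch and activation genes did (3 unadjusted), JAG1 having -0.33 (limma adjusted p 0.0509) and UNC5B 0.19.

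For the neighbouring cells, 0 of 5 lymphatic markers passed by limma (2 unadjusted), with mean differences of 0.45 for PDPN and -0.31 for RELN. The 12 pericyte and smooth muscle markers gave 0 calls and 0 unadjusted, with 0.23 for TAGLN and -0.22 for RGS5. Of 5 platelet markers 0 passed (1 unadjusted), with -0.11 for GP9 and 0.08 for ITGA2B. Among 8 leukocyte markers the myeloid integrin ITGAM rose by 0.35 (limma adjusted p 0.0379) and the T cell receptor subunit CD3E fell by 0.23 (limma adjusted p 0.042). Among 7 resting fibroblast markers PI16 fell by 1.07 ± 0.21 (SE, n = 21; limma adjusted p 0.0020), higher in 2 of 21 tumours, and PDGFRA had -0.26 (limma adjusted p 0.0787). In the low spike-in tumours alone 0 of the 105 listed genes passed.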

How the data were processed

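RNA from sarcoma tissue kept in RNAlater was hybridised to 42 canine arrays, 2 per tumour. The authors computed levels by RMA with the Affymetrix Expression Console, per the submitters' processing notes. Versions are not given in the sources used here. RMA includes quantile normalisation, so a shift shared by most genes is not visible. The deposited values are log2 levels, from 2.13 to 14.6, with array medians of 5.20 to 5.31. Symbols came from the platform annotation: 29254 probe sets have 1 symbol, 439 several and 13231 none. Precision is limited by how many arrays there are.

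The treatment label set the groups, the code at the start of each title set the pairs, and all 21 arrays before treatment correlated best with the array of their own tumour after it (r 0.438 to 0.900, median 0.677). Whether any dog gave more than 1 tumour is not labelled. A p-value therefore reflects only how far these tumours spread. The 111 control probe sets were left out, leaving 42924. The paired test was limma 3.58.1 in R 4.3.3 (tumour as a block, eBayes, two-sided, Benjamini-Hochberg over all probe sets, 0.05) and was tested on simulated data. For relations over tumours, 100000 permutations gave two-sided p-values of Pearson's r and of Spearman's rho. Other steps ran in Python 3.11.15 with SciPy 1.17.1, Matplotlib 3.10.9, NumPy 2.4.6 and pandas 2.3.3. Alternatives covered normalisation, array weights, eBayes settings, the block, other probe sets, the Wilcoxon test, the 3' to 5' contrast, spike-in groups and single tumours left out.

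The members and gene lists were chosen with earlier results of these data known. Beside the members, the text names from each list the called genes, up to the 4 smallest p, or the 2 smallest where fewer than 2 passed, with the VEGF ligands and NRP1 in every case, and the likeness genes with the highest r. The 8 relations with VEGFA and marker lists, and the fit without 64 reporter probe sets, were added after the data were seen. No sequence or coordinate is used here.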

Additional observations from a re-analysis of the deposited data

How the results depend on the processing

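Of 364 values of member differences under alternative settings, 351 kept their direction and, where a p-value was computed, their side of the threshold. Settings that change only the test, the block or the probe sets adjusted over leave the mean difference itself the same. Its direction could not change there, so this count is no measure of robustness. Without the replicate block, which drops the pairing of arrays by tumour, 30 probe sets passed in place of 2558 and no member did. The count was 1293 in the high and 0 in the low spike-in tumours (4989 there at an unadjusted p under 0.05), 686 without the 5 tumours of changed 3' to 5' contrast, 3861 without tumours 13 and 15, 377 with a fold of at least 1.5, 605 by the Wilcoxon signed-rank test, and 1816 (without tumour 10) to 3171 (without tumour 15) with single tumours left out. The cause of these shifts was not tested. Members passing by limma were 0, but 1 with array weights (TEK, -0.34, adjusted p 0.0335), 1 in the high spike-in tumours (TEK), 1 without tumours 13 and 15 (CD34, -0.31, adjusted p 0.0343) and 0 to 1 with single tumours left out. Listed genes passing went from 6 to 0 in the low spike-in tumours. Relations of levels went from 17 to 11 without the 2 farthest tumours, and relations of differences from 1 to 4, and to 0 in either spike-in group alone. Signs turned in the high spike-in tumours for PECAM1 (-0.11), KDR (-0.15), TIE1 (-0.012), ANGPT1 (-0.0063), VEGFB (0.028), CDH5 with TIE1 (r -0.16) and the r of KDR before and after (-0.027), in the low ones for PGF (0.027), with another probe set for CDH5 (-0.013) and ANGPT2 (-0.0027), and with the contrast covariate for TIE1 (-0.021). The mean levels of FLT1, ANGPT1 and ANGPT2 lie below the median of all probe sets (5.28), so their values may be near background, which was not measured.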
